A study of Gallus gallus with 8 samples.

Results

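Accessible sites of embryonic day 10 red blood cells (eRBC) were compared with those of HD3 erythroblasts. The members are all peaks of both cell types' ATAC-seq peak lists, 12558 in eRBC and 11763 in HD3, which together are 24321 of the 53397 peaks in the 4 lists of the study. A peak was counted as shared when its interval overlapped one of the other list by at least 1 bp. This gave 6740 shared eRBC peaks, 53.7% of their list, and 5818 eRBC peaks without an HD3 peak. It gave 6882 shared HD3 peaks, 58.5% of their list, and 4881 HD3 peaks without an eRBC peak.

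All samples were chicken cells labelled WT, with 2 samples for each of the 4 cell types. The eRBC were primary cells taken on embryonic day 10. HD3 is a cell line labelled as chicken erythroblasts, grown in DMEM with 10% fetal bovine serum and 2% chicken serum. The other 2 lists, from primary erythrocytes of hens 28 to 38 weeks old (aRBC) and from primary fibroblasts grown in the medium of HD3, were used only as an outside readout. Whether cells of several embryos or hens were pooled is not given in the labels. In ATAC-seq the Tn5 transposase cuts and tags DNA that is not wrapped in nucleosomes, and a peak is a stretch with more cuts than its surroundings. Below, open means having a peak in a list, and a site without a peak was not shown to be closed. Each cell type has 1 list, so no value below has a replicate error and no test between cell types was possible. How the 2 samples entered a list is not stated. The peak names begin with HD32 and eRBC2, and whether the last digit marks the sample on which peaks were called is not stated either. The 95% Wilson intervals cover counting error over peaks only, and neighbouring peaks are not independent. Read depth is unknown.

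HD3 cells are erythroid precursors transformed by avian erythroblastosis virus, which holds them in a dividing, immature state. Avian red blood cells leave this state, fill with haemoglobin and keep a nucleus, whose chromatin condenses while transcription declines. Bird genomes pair a few large chromosomes with many small, gene-rich ones called microchromosomes, and females carry the sex chromosomes Z and W. Positions are those of the deposited lists, for which the submitters' processing notes name the assembly GRCg6a. No annotation of that assembly was used here, so peaks were not assigned to genes and the labelled cell types were not checked against marker genes.

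Merging both lists gave 17413 separate regions. Of these 6714 were shared (38.6%, 37.8% to 39.3%), 5818 were open in eRBC without HD3 (33.4%, 32.7% to 34.1%) and 4881 in HD3 without eRBC (28.03%, 27.4% to 28.7%). Most shared sites paired cleanly: 6524 were formed by exactly 1 peak of each list. Another 165 eRBC peaks overlapped 2 or more HD3 peaks, up to 4, while only 26 HD3 peaks overlapped 2 or more eRBC peaks. The rule's limit of 1 bp decided few cases. The median overlap was 171 bp, 98.8% of overlapping pairs shared 50 bp or more, and 15 pairs shared 10 bp or less. In those 15 pairs the median within-list percentile by fold enrichment was 42.0 for the eRBC peaks and 15.8 for the HD3 peaks. Just outside the limit, 3 eRBC peaks and 3 HD3 peaks missed the other list by at most 10 bp, with median percentiles of 7.80 and 10.2 in their own lists.

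Sharing went with the strength of a site within its list in eRBC, and much less in HD3. Strength is the fold enrichment at the summit that the authors' peak caller gave each peak, and it was used here only as a rank within a list, with percentile 100 for the strongest. Among eRBC peaks, 16.4% of the weakest 10% of the list were overlapped in HD3 (14.5% to 18.6%), against 91.1% of the strongest 10% (89.4% to 92.5%). Among HD3 peaks, 53.5% of the weakest 10% (50.6% to 56.3%) and 59.2% of the strongest 10% (56.3% to 62.0%) were overlapped in eRBC, and the highest share, 63.6%, was in the seventh of 10 steps. Among peaks reaching 10 in −log10 q, 71.8% of shared eRBC peaks and 49.9% of shared HD3 peaks ranked above the middle of their list. Of the 100 strongest eRBC peaks 9 lacked an HD3 peak, and of the 100 strongest HD3 peaks 35 lacked an eRBC peak. Among the strongest 1000 these numbers were 84 in eRBC and 420 in HD3. The median percentile was 67.1 for shared eRBC peaks and 31.3 for eRBC peaks without HD3. In HD3 it was 52.6 for shared peaks and 46.0 for peaks without eRBC.

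**Figure D1:**
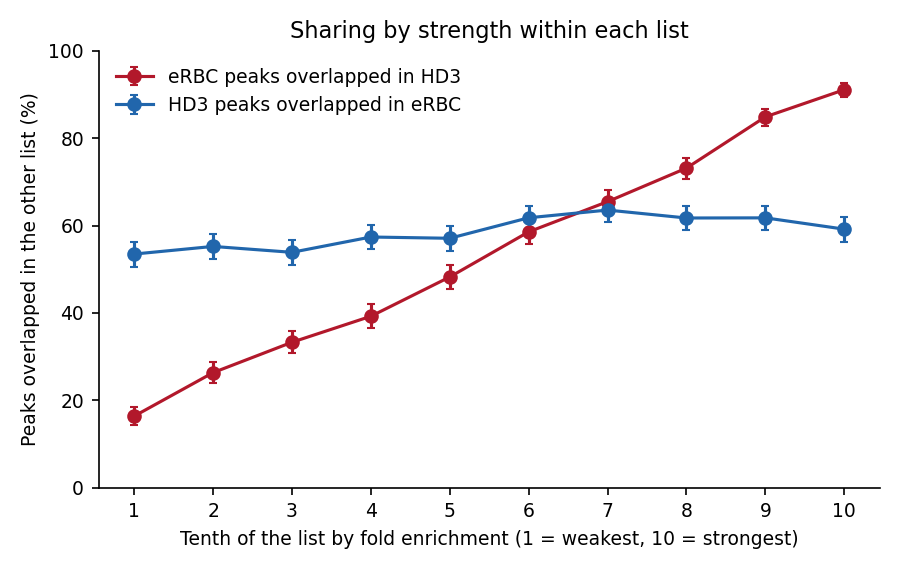
Share of peaks overlapped in the other list (%, vertical axis) in steps of 10% of each list ordered by fold enrichment (horizontal axis, weakest to strongest), with eRBC peaks in red, HD3 peaks in blue and 95% Wilson intervals as bars. The eRBC line climbs from 16.4% to 91.1%, and the HD3 line stays between 53.5% and 63.6%.

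At the 6524 one-to-one sites both ranks could be set side by side. The median percentile was 67.1 in eRBC and 53.5 in HD3, and the median difference, eRBC minus HD3, was 10.1 points (quartiles -5.84 and 30.8). The ranks were loosely related across sites, with a Spearman rho of 0.432 and a Pearson r of 0.406, where all points share the same 2 lists and each site's own DNA. In 29.2% of sites the 2 percentiles lay within 10 points of each other. Of 2606 sites in the top 25% of the eRBC list and 1748 in the top 25% of the HD3 list, 1167 were in both. Sites in the top 25% of eRBC and the bottom 25% of HD3 numbered 246, and those in the bottom 25% of eRBC and the top 25% of HD3 numbered 86. One-to-one sites hold shared peaks only, and the weakest 10% of each list were shared in 16.4% in eRBC and 53.5% in HD3. The 2 counts and the median difference depend on this, and they do not compare signal between the cell types.

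The 5 one-to-one sites ranked best in both lists had summits at most 8 bp apart and eRBC intervals of 121 to 381 bp. The first, on chromosome 31 from 3132686 to 3132952 in eRBC, held rank 1 in eRBC (fold enrichment 54.7) and rank 1 in HD3 (53.2), the head of both lists. The second, on chromosome 16 from 1806295 to 1806416, held rank 2 in eRBC (52.1) and rank 2 in HD3 (45.7), yet only rank 5343 in aRBC and rank 10484 in fibroblasts. Chromosome 16 carries the chicken major histocompatibility complex and the ribosomal RNA genes. The third, on chromosome 1 from 175202313 to 175202485, held rank 3 in eRBC and rank 4 in HD3. The fourth, on chromosome 2 from 86463213 to 86463333, held rank 5 in both lists. The last of the 5, on chromosome 33 from 77151 to 77531, held rank 6 in eRBC and rank 3 in HD3. All of these but the chromosome 16 site also stood within the first 130 ranks of aRBC and the first 24 of fibroblasts.

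Some sites were open in both lists and ranked at opposite ends. The 3 strongest in eRBC relative to HD3 lay on chromosome 1 from 77526190 to 77526609 (rank 482 in eRBC, 11734 in HD3), on chromosome 22 from 143913 to 144322 (rank 51 in eRBC, 11103 in HD3) and on chromosome Z from 16761215 to 16761448 (rank 115 in eRBC, 11103 in HD3). All 3 had an aRBC peak, at rank 1383, 1078 and 2077 in the same order. The 3 with the reverse pattern lay on chromosome 4 from 81846568 to 81846695 (rank 12199 in eRBC, 68 in HD3), on chromosome 4 from 8541549 to 8541643 (rank 12155 in eRBC, 222 in HD3) and on chromosome 3 from 107543394 to 107543509 (rank 12092 in eRBC, 445 in HD3). None of these 3 had an aRBC peak, and all 6 sites had a fibroblast peak. Over all shared eRBC peaks 71.1% were overlapped in aRBC and 58.6% in fibroblasts. In the strongest 10% of the eRBC list, which holds the first 3 sites, these shares were 93.1% and 85.7%. In the weakest 10%, which holds the last 3, they were 29.6% and 30.6%. For shared HD3 peaks they were 60.6% and 30.7% in the weakest 10% of the HD3 list, which holds the first 3 sites. In the strongest 10% of the HD3 list, which holds the last 3, they were 74.1% and 84.2%. The 6 sites were picked for the size of their rank difference, which is therefore a description.

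Peaks were wider in eRBC, and shared peaks were wider than unshared ones in both lists. In eRBC the median width was 287 bp for shared peaks (quartiles 203 and 394) and 171 bp for peaks without HD3 (122 and 249), a ratio of 1.68. In HD3 it was 187 bp for shared peaks (133 and 261) and 151 bp for peaks without eRBC (113 and 207), a ratio of 1.24. Of shared peaks 66.9% in eRBC and 57.1% in HD3 were wider than their list's median. Among the alternatives tried, only lists of equal length turned this order, to 60.5% and 61.8%. Shared peaks made up 64.3% of the 3310 kb covered in eRBC and 63.5% of the 2267 kb covered in HD3. Width went with rank, so it was also compared within strength classes. In the strongest 10% of each list the medians were 368.5 bp for shared eRBC peaks and 270.0 bp for eRBC peaks without HD3, and 282 bp for shared HD3 peaks and 221 bp for HD3 peaks without eRBC. In the weakest 10% the classes were close, at 133 and 124 bp in eRBC and 106 and 99.0 bp in HD3, shared peaks first in each pair.

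**Figure D2:**
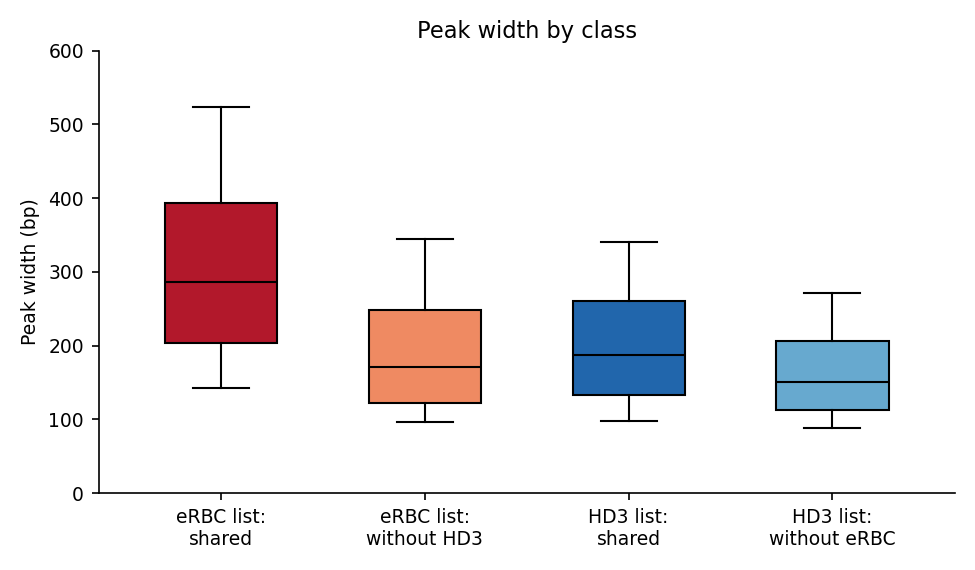
Peak width in bp (vertical axis) for shared peaks and peaks without the other cell type in the eRBC list and in the HD3 list. Boxes span the quartiles around the median and whiskers run between the 10th and 90th percentiles. Shared eRBC peaks are the widest class, with a median of 287 bp, and HD3 peaks without eRBC the narrowest, with 151 bp.

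Sharing went with width in both lists. The rule counts overlap of intervals, so a wider interval can more readily be counted as shared, here and in the widths by class above. The part of this was not tested. In eRBC 17.6% of peaks up to 100 bp were shared, against 85.4% of those over 600 bp. In HD3 these shares were 47.4% and 85.7%. At the same site the eRBC interval was usually the larger. Of the one-to-one sites 81.5% were wider in eRBC and 18.03% wider in HD3, with a median width ratio, eRBC over HD3, of 1.39 (quartiles 1.08 and 1.97). The HD3 interval lay wholly inside the eRBC interval at 61.7% of sites, and the eRBC interval inside the HD3 interval at 9.26%. The summits stayed close, with a median distance of 30 bp and 69.2% within 50 bp, and 3.62% of summit pairs were over 150 bp apart. Interval width also depends on depth and on the settings of the call, whose part was not tested.

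The 2 classes with a peak in only 1 of the 2 lists were placed differently along the chromosomes. On chromosomes 1 to 5, the large ones, eRBC peaks without HD3 had 3.70 sites per Mb and HD3 peaks without eRBC 4.99. On chromosomes 11 to 33, the small ones, eRBC peaks without HD3 had 10.95 sites per Mb and HD3 peaks without eRBC 4.65. The density ratio of small over large chromosomes was thus 2.96 for eRBC peaks without HD3 and 0.931 for HD3 peaks without eRBC, beside 2.00 for shared eRBC peaks and 1.96 for shared HD3 peaks. HD3 peaks without eRBC were therefore about as dense on large as on small chromosomes, and the other classes were denser on the small ones. Large chromosomes held 38.7% of eRBC peaks without HD3 and 62.3% of HD3 peaks without eRBC. Chromosome lengths were taken as the last peak end in any of the 4 lists.

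**Figure D3:**
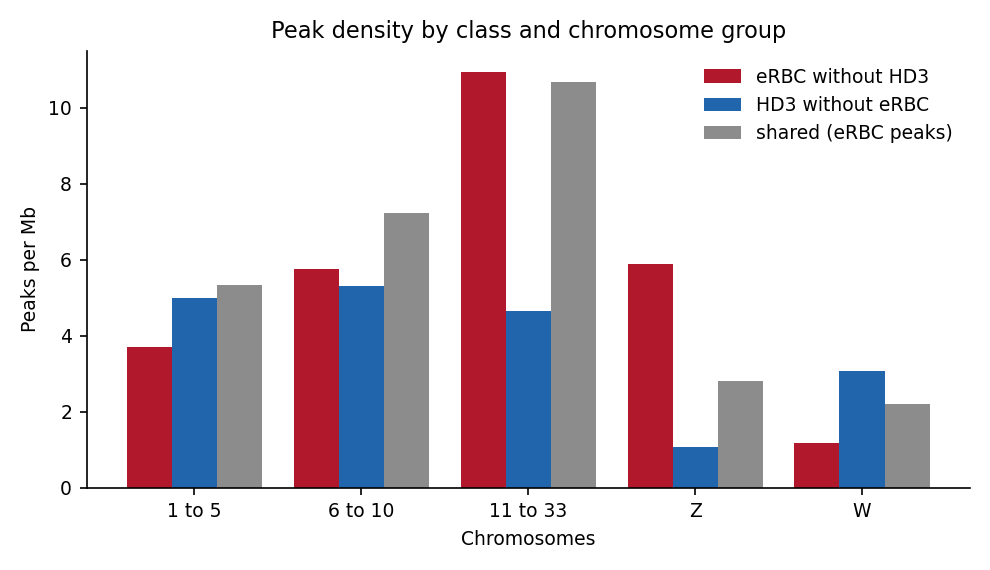
Peaks per Mb (vertical axis) on 5 groups of chromosomes (horizontal axis) for eRBC peaks without HD3 (red), HD3 peaks without eRBC (blue) and shared sites counted as eRBC peaks (grey). The blue bars lie between 4.65 and 5.31 on chromosomes 1 to 33, where the red bars run from 3.70 to 10.95, and on chromosome Z the red bar is at 5.90 and the blue one at 1.08.

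The sharing of each list changed in opposite directions with chromosome size. Among eRBC peaks, 59.1% were shared on chromosomes 1 to 5 (57.8% to 60.4%), 55.6% on 6 to 10 and 49.4% on 11 to 33 (47.9% to 50.9%). Among HD3 peaks, 52.4% were shared on chromosomes 1 to 5 (51.2% to 53.7%), 58.1% on 6 to 10 and 69.9% on 11 to 33 (68.2% to 71.5%). Both shares count nearly the same sites, 3258 eRBC and 3355 HD3 peaks on chromosomes 1 to 5, and 2160 and 2180 on 11 to 33. How the 2 shares differ therefore restates the peak numbers, 5510 in eRBC and 6397 in HD3 on chromosomes 1 to 5, and 4375 and 3120 on 11 to 33. Of 34 chromosomes with peaks in both lists, 8 held more HD3 than eRBC peaks, among them chromosomes 1, 2, 3 and 4. On chromosome 28, eRBC had 199 peaks of which 47.7% were shared, and HD3 had 106 of which 90.6% were shared. On chromosome 2, eRBC had 1172 peaks of which 58.4% were shared, and HD3 had 1418 of which 49.4% were shared. Chromosome 31 had the lowest shared share in eRBC, 23 of 100 peaks, against 23 of 40 in HD3.

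The unshared classes also differed near the ends of the larger chromosomes. Within 1 Mb of either end of chromosomes 1 to 5 lay 6.48% of eRBC peaks without HD3 (5.54% to 7.58%) and 3.25% of shared eRBC peaks (2.70% to 3.92%). In HD3 the order was the other way round, with 1.64% of peaks without eRBC (1.25% to 2.16%) and 3.19% of shared peaks (2.65% to 3.84%) in these stretches. On chromosomes 6 to 10 the shares were 11.4% for eRBC peaks without HD3 and 4.82% for HD3 peaks without eRBC, beside 6.05% and 6.12% for the shared peaks of eRBC and HD3. On chromosomes 11 to 33 the eRBC classes had overlapping intervals, at 30.3% without HD3 (28.5% to 32.3%) and 28.4% shared (26.6% to 30.4%), while in HD3 the shares were 21.9% without eRBC (19.4% to 24.7%) and 28.9% shared (26.99% to 30.8%).

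Chromosome Z had few HD3 peaks and few shared sites for its length. eRBC had 8.72 peaks per Mb on Z and 9.04 on chromosomes 1 to 5, while HD3 had 3.94 on Z and 10.5 on chromosomes 1 to 5. Shared sites, counted as eRBC peaks, stood at 2.82 per Mb on Z and 5.35 on chromosomes 1 to 5. Z held 720 eRBC and 325 HD3 peaks, and 487 of the eRBC peaks had no HD3 peak. Of eRBC peaks on Z 32.4% were shared (29.05% to 35.9%), the lowest of the 5 chromosome groups, and of HD3 peaks 72.6% (67.5% to 77.2%). Among peaks reaching 10 in −log10 q, the eRBC share on Z was 21.3%. From 70 Mb to its end Z held 138 eRBC peaks without HD3 and 21 HD3 peaks without eRBC, and before 70 Mb it held 349 and 68. Of the eRBC peaks without HD3, 46.4% in the distal stretch and 31.8% before it were overlapped in fibroblasts. Over all chromosomes this share was 20.2% for eRBC peaks without HD3 and 40.8% for all eRBC peaks. In aRBC 19.6% in the distal stretch and 32.4% before it were overlapped. Over all chromosomes that share was 41.0% for eRBC peaks without HD3 and 57.1% for all eRBC peaks. Of the HD3 peaks without eRBC, 1 of 21 in the distal stretch and 36.8% before it were overlapped in fibroblasts. Over all chromosomes it was 20.4% for HD3 peaks without eRBC and 42.2% for all HD3 peaks. On W, present in females only, there were 23 eRBC peaks of which 8 lacked an HD3 peak, and 37 HD3 peaks of which 21 lacked an eRBC peak. The sex of the eRBC and HD3 cells is not given, and copy number of Z and W in these samples was not tested.

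Open sites lay closer together in the eRBC list, most of all those without an HD3 peak, while HD3 peaks without eRBC lay farther from their neighbours than any other class. An eRBC peak without HD3 had another eRBC peak within 10 kb in 72.4% of cases (71.2% to 73.5%), against 61.5% over all eRBC peaks and 52.03% for shared eRBC peaks. An HD3 peak without eRBC had another HD3 peak within 10 kb in 32.2% (30.9% to 33.6%), against 38.3% over all HD3 peaks and 42.6% for shared HD3 peaks. The median gap to the nearest peak of the same list was 2702 bp for eRBC peaks without HD3, and 20437 bp for HD3 peaks without eRBC. Shared peaks had median gaps of 9025 bp in eRBC and 13345.5 bp in HD3. The same order was seen within groups of chromosomes, in some with overlapping intervals. On chromosomes 1 to 5 the shares within 10 kb were 72.4% and 48.6% for unshared and shared eRBC peaks, and 31.0% and 44.0% for unshared and shared HD3 peaks. On chromosomes 11 to 33 they were 74.2% and 56.3% in eRBC, and 38.3% and 42.0% in HD3. The running numbers in the peak names skip 40.3% in HD3 and 15.7% in eRBC. Calls with the skipped numbers are missing from their own list. Their part in the gaps, and in which peaks of the other list count as unshared, was not tested. In lists cut to 6883 peaks each, the unshared shares within 10 kb were 45.3% in eRBC and 21.8% in HD3.

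**Figure D4:**
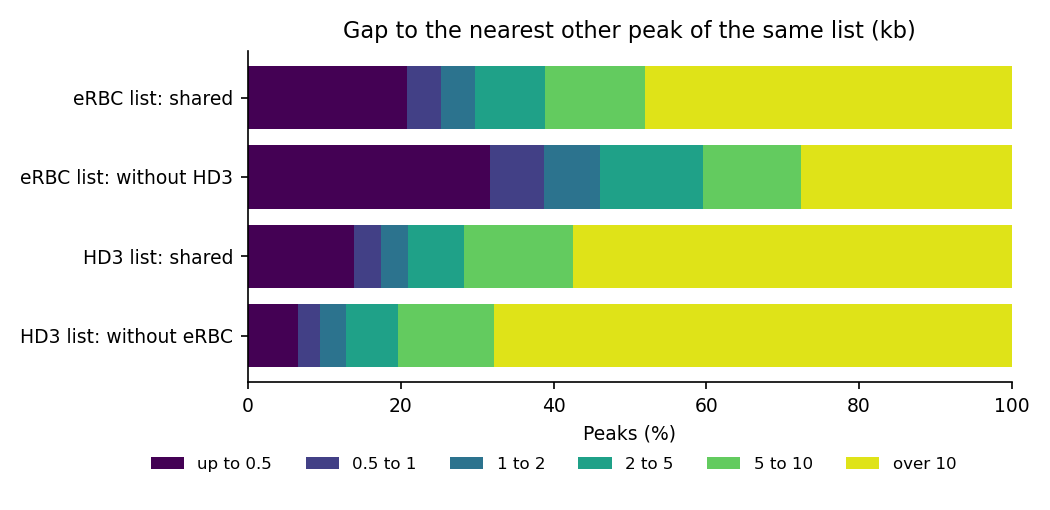
Gap to the nearest other peak of the same list, as shares of peaks (%, horizontal axis) in 6 distance classes in kb, for the shared and unshared peaks of eRBC and of HD3. The yellow part, gaps over 10 kb, is smallest for eRBC peaks without HD3 (27.6%) and largest for HD3 peaks without eRBC (67.8%).

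At short range, gaps of 100 to 200 bp were the most frequent of the 100 bp classes up to 1000 bp in both lists. Such a gap was the nearest one for 1475 eRBC peaks, of which 803 lacked an HD3 peak, and for 430 HD3 peaks, of which 119 lacked an eRBC peak. As a share, 13.8% of eRBC peaks without HD3 and 2.44% of HD3 peaks without eRBC had their nearest neighbour at this distance. Over all peaks the shares were 11.7% in eRBC and 3.66% in HD3, so the whole lists already differed, and among shared peaks they were 9.97% in eRBC and 4.52% in HD3. Within 1 kb of a shared peak of the same list lay 18.5% of eRBC peaks without HD3 and 4.08% of HD3 peaks without eRBC. Over 100 kb away from any shared peak were 11.7% of eRBC peaks without HD3 and 35.8% of HD3 peaks without eRBC. The median distance to the nearest peak of the other cell type was 11389 bp for eRBC peaks without HD3 and 42758 bp for HD3 peaks without eRBC. Distances to shared peaks and to the other cell type were not split by chromosome group. Chromosomes 1 to 5 held 38.7% of eRBC peaks without HD3 and 62.3% of HD3 peaks without eRBC. Shared eRBC peaks stood at 5.35 per Mb there and at 10.7 on chromosomes 11 to 33.

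Linking merged regions across gaps of at most 10 kb gave 11072 runs, of which 7347 were single regions. A region stood alone in 24.7% of eRBC regions without HD3 (23.6% to 25.8%), 63.3% of HD3 regions without eRBC (62.0% to 64.7%) and 42.0% of shared regions (40.8% to 43.2%). Of the 3725 runs with 2 or more regions, 1440 joined shared regions to eRBC regions only and 472 joined shared regions to HD3 regions only. Runs purely of eRBC regions without HD3 numbered 567 and runs purely of HD3 regions without eRBC 311. Both unshared classes met without a shared region in 218 runs. Among the 253 runs of 5 or more regions, eRBC regions without HD3 were the most numerous class in 146, shared regions in 58 and HD3 regions without eRBC in 12. The remaining runs had no single largest class. Over all merged regions these classes made up 33.4%, 38.6% and 28.03% in the same order. At least 1 eRBC region without HD3 was present in 239 of the 253 runs, and at least 1 HD3 region without eRBC in 108.

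The runs richest in each class show what these clusters look like. For eRBC peaks without HD3 they were on chromosome 33 from 4110600 to 4144552 with 15 such peaks beside 2 shared, on chromosome 31 from 4702757 to 4722935 with 15 beside 1 shared, and on chromosome 23 from 80832 to 117001 with 10 beside 8 shared. Over all eRBC peaks of each run, shared ones included, the median percentiles were 11.1, 34.8 and 34.9, beside 31.3 for eRBC peaks without HD3 as a class. The runs were also dense in the outside lists. The run on chromosome 33 held 15 aRBC and 19 fibroblast peaks. Of its 15 unshared eRBC peaks 12 were overlapped in aRBC and 14 in fibroblasts, beside 41.0% and 20.2% over the class. All 3 runs held mostly weak outside peaks, with median percentiles of 3.39, 1.25 and 3.17 in aRBC and 1.52, 1.47 and 4.60 in fibroblasts. For HD3 peaks without eRBC they were on chromosome 11 from 19057146 to 19095581 with 5 beside 3 shared, on chromosome 11 from 19442811 to 19458304 with 5 and no eRBC peak, and on chromosome 3 from 59895145 to 59929533 with 4 beside 5 eRBC peaks that did not overlap them. In aRBC none of the unshared HD3 peaks of these 3 runs was overlapped, where the share over the whole class was 4.24%, and in fibroblasts 2 were, where the share over the class was 20.4%.

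The richest run of shared sites lay on chromosome 16 from 1799098 to 1842950, with 15 shared regions and 6 open in eRBC without HD3. Its peaks were strong, with a median percentile of 90.4 over 21 eRBC peaks and 93.9 over 15 HD3 peaks. In aRBC the same stretch held 31 peaks with a median percentile of 3.86, and in fibroblasts 38 with 2.296. The next runs of shared sites were the one on chromosome 23 named above and one on chromosome 27 from 2165181 to 2193074, each with 8 shared regions. In windows of 1 Mb, the largest count of HD3 peaks without eRBC was 28, on chromosome 11 between 19 and 20 Mb. There 22 of the 50 HD3 peaks were shared, and eRBC had 29 peaks, 7 of them unshared. The next highest windows held 18 HD3 peaks without eRBC. The largest count of eRBC peaks without HD3 was 30, on chromosome 18 between 10 and 11 Mb and on chromosome 33 between 4 and 5 Mb, where HD3 had 3 and 2 unshared peaks.

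The lists of adult red blood cells and fibroblasts took no part in the definition of the classes. Sites open in eRBC without HD3 were open in adult cells more often than sites open in HD3 without eRBC. Both classes were so less often than their whole lists. In aRBC were overlapped 2384 of 5818 eRBC peaks without HD3 (41.0%, 39.7% to 42.2%), against 57.1% of all eRBC peaks. Of HD3 peaks without eRBC 207 of 4881 were overlapped in aRBC (4.24%, 3.71% to 4.84%), against 43.1% of all HD3 peaks. Shared peaks were overlapped in aRBC in 71.1% of eRBC peaks (69.97% to 72.1%) and 70.6% of HD3 peaks (69.5% to 71.7%). In fibroblasts the unshared classes, taken whole, did not separate. Overlapped there were 20.2% of eRBC peaks without HD3 (19.2% to 21.2%) and 20.4% of HD3 peaks without eRBC (19.3% to 21.6%). Over the whole lists it was 40.8% of eRBC and 42.2% of HD3 peaks. Within strength classes the order of the unshared classes in fibroblasts changed, as given below. Shared peaks were overlapped in fibroblasts in 58.6% in eRBC and 57.6% in HD3. Neither outside list had a peak at 52.9% of eRBC peaks without HD3 and at 76.6% of HD3 peaks without eRBC, while both had one at 14.01% and 1.23%, against 31.8% of all eRBC and 27.5% of all HD3 peaks. The eRBC and HD3 lists were also cut to the 6883 peaks of highest −log10 p each, with the outside lists left whole. The classes were drawn again, so a peak whose partner was cut counts as unshared. Unshared peaks were then overlapped in aRBC in 69.6% in eRBC and 10.6% in HD3, and in fibroblasts in 37.4% in eRBC and 29.5% in HD3. The peak names of the eRBC, aRBC and fibroblast lists contain the word CLEANED and those of HD3 contain macs2 and 0.01, and whether the lists were made in different ways is not stated. The part of this in the adult overlap was not tested.

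**Figure D5:**
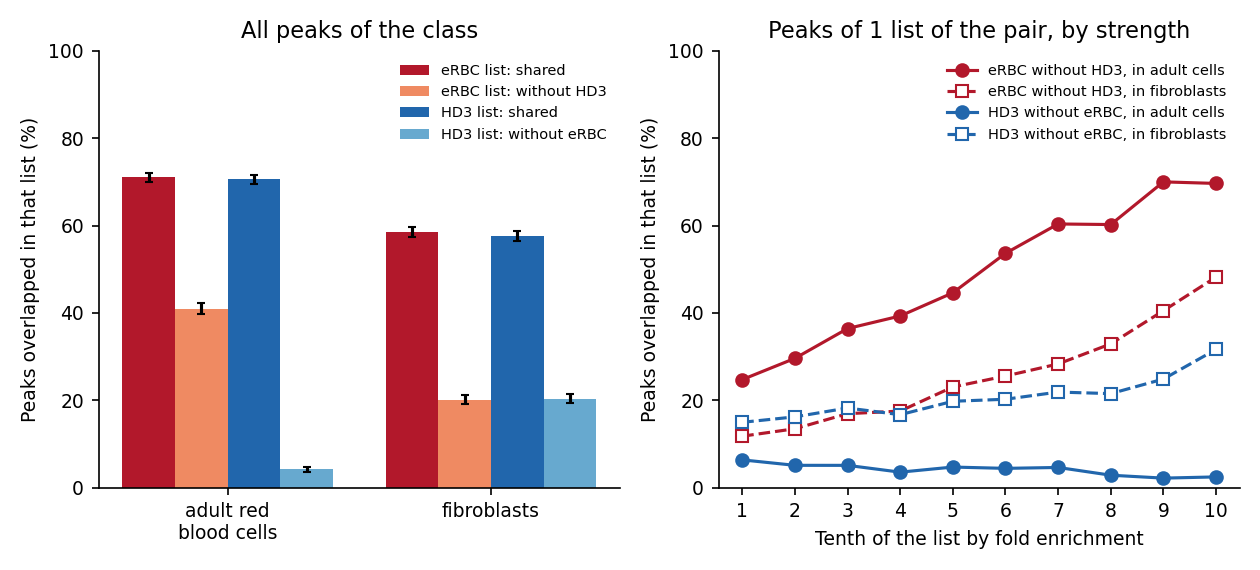
Share of peaks overlapped in the lists of adult red blood cells and fibroblasts (%, vertical axes). Left, all peaks of the 4 classes with 95% Wilson intervals, where HD3 peaks without eRBC reach 4.24% in adult cells; right, the 2 unshared classes in steps of 10% of their list from weakest to strongest, where eRBC peaks without HD3 climb to 69.6% in adult cells and HD3 peaks without eRBC end at 2.50%.

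The gap in aRBC was present in each of the 10 strength classes. In the weakest 10% of the lists 24.8% of eRBC peaks without HD3 and 6.40% of HD3 peaks without eRBC were overlapped in aRBC. In the strongest 10% these shares were 69.6% (78 of 112 peaks) and 2.50% (12 of 480 peaks). The share in fibroblasts was higher among strong than weak peaks in both classes. It was 48.2% in the strongest and 11.8% in the weakest 10% for eRBC peaks without HD3, and 31.7% and 15.0% for HD3 peaks without eRBC. The order of the 2 classes in fibroblasts thus turned with strength. Up to the third of the 10 steps eRBC peaks without HD3 stood lower, there at 17.0% against 18.3%. From the fourth step on they stood higher, there at 17.6% against 16.7%. The whole classes mix these steps differently, with median percentiles of 31.3 in eRBC and 46.0 in HD3. By chromosome, eRBC peaks without HD3 were overlapped in aRBC in 37.3% on chromosomes 1 to 5, 47.0% on 11 to 33 and 28.7% on Z. HD3 peaks without eRBC were so in 3.02%, 8.30% and 3.37%.

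Seen from the outside lists, peaks that met both eRBC and HD3 ranked highest. Adult peaks that met both lists had a median percentile of 72.9 within aRBC, those that met eRBC without HD3 44.2, those that met HD3 without eRBC 43.5 and those that met neither 28.7. Fibroblast peaks had median percentiles of 71.4, 43.5, 60.9 and 42.8 in the same order, so in fibroblasts the sites met by HD3 without eRBC ranked above those met by eRBC without HD3. These groups held 4753, 2384, 199 and 4059 adult peaks and 3946, 1218, 1007 and 11510 fibroblast peaks.

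The 5 strongest sites of each unshared class differ in the same direction. In eRBC they lay on chromosome 8 from 9073063 to 9073213 (rank 22, fold enrichment 28.1), on chromosome 9 from 916490 to 916641 (rank 24, 28.1), on chromosome 8 from 11301822 to 11301941 (rank 30, 25.7), on chromosome 30 from 1818066 to 1818198 (rank 60, 22.8) and on chromosome 3 from 108759824 to 108760091 (rank 76, 21.9). All 5 had an aRBC peak, with ranks between 215 and 3276, and the first 4 also had a fibroblast peak, with ranks between 81 and 232. In the strongest 10% of the list these shares were 69.6% and 48.2% of eRBC peaks without HD3. The median width was 229 bp over the eRBC list (quartiles 150 and 335) and 270 bp for eRBC peaks without HD3 in its strongest 10%. The first 4 sites were narrower, 120 to 152 bp wide, and the last was 268 bp wide. In HD3 they lay on chromosome 1 from 142908112 to 142908431 (rank 12, 32.5), on chromosome 4 from 57877335 to 57877594 (rank 13, 31.6), on chromosome 3 from 102703458 to 102703704 (rank 18, 30.0), on chromosome 2 from 1008754 to 1008984 (rank 21, 29.8) and on chromosome 1 from 155113936 to 155114219 (rank 22, 29.5). Having no eRBC peak is fixed by the rule of the class. In the strongest 10% of the list, 2.50% of HD3 peaks without eRBC were overlapped in aRBC and 31.7% in fibroblasts, and none of these 5 was overlapped in either. They were 231 to 320 bp wide, all above the HD3 median of 171 bp, and the nearest other HD3 peak was between 11835 and 375865 bp away.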

How the data were processed

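ATAC-seq was run on 8 chicken samples, 2 for each of 4 cell types. Tagmentation took 30 min on nuclei from 150000 cells, followed by 10 PCR cycles, per the labels' protocols. The submitters' processing notes name Bowtie2 2.3.5, SAMtools 1.9, MACS2 2.1.2 and GRCg6a, without saying what each was used for. The way replicates were combined and any Tn5 offset are not given in the sources used here. The authors deposited 1 narrowPeak list per cell type, with a fold enrichment (a ratio), −log10 p and −log10 q values, and a display score per peak. These are the authors' values and were used only within a list. Read depth is unknown.

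Overlaps, gaps and shares were computed with Python 3.11.15, NumPy 2.4.6, pandas 2.3.3 and SciPy 1.17.1, and figures with matplotlib 3.10.9. The code was tested on simulated lists, and all 6 overlap counts equalled those of bedtools 2.31.1. Starts were moved from 0-based to 1-based. No test was run. Sites were named by rule: the 5 strongest unshared peaks of each list, the 5 one-to-one sites with the best worse rank, the 3 with the largest percentile difference in each direction, and the 3 runs with most regions of each class. The windows of 1 Mb and the boundary at 70 Mb on Z were chosen after values were seen. Tried as alternatives were lists of equal length, a −log10 q minimum of 10, an overlap of 50% of the shorter peak, 200 bp around summits, −log10 p ranks, covered bases, other linking gaps and removal of dense windows (100 kb with at least 10 peaks in either list). The classes and choices were made with earlier results of these data known. Gene positions and motifs are not reported here, as no genome of this build was used.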

Additional observations from a re-analysis of the deposited data

Results flagged for a closer look

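The running numbers in the peak names, of which the skipped shares are given above, were also set against the positions of the unshared peaks. Of eRBC peaks without HD3, 41.1% lay between 2 consecutively numbered HD3 peaks, so that no HD3 number is missing there, and 57.5% lay between HD3 peaks with at least 1 number missing. Of HD3 peaks without eRBC, 58.7% lay between 2 consecutively numbered eRBC peaks and 40.9% where at least 1 eRBC number is missing. No share over all stretches between numbered peaks was computed, so these values cannot be read as high or low. What the missing calls were was not tested.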

How the results depend on the processing

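No paired analysis was possible because each list is 1 set of peaks for a cell type, and how its 2 samples entered it is not stated. Leaving out a sample was likewise not possible. Of 104 alternative values 57 lay outside the interval of the main value. Shortening the lists also changes which peaks count as shared, and the causes of these moves were not tested. The order of the 2 unshared classes in aRBC and in neighbours within the linking gap held in every alternative run for them. So did the opposite trends of sharing with chromosome size, which count nearly the same shared sites in both lists. The order of the unshared classes in fibroblasts, whose difference, eRBC minus HD3, was -0.26 points, was turned in 2 of 5. Read depth limits all counts and is unknown.

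With a −log10 q of at least 10 (9345 eRBC and 6883 HD3 peaks), 41.3% of eRBC and 56.6% of HD3 peaks were shared. On chromosomes 1 to 5, 11 to 33 and Z the eRBC shares were 47.4%, 36.3% and 21.3%, and the HD3 shares on 1 to 5 and Z 50.2% and 66.7%. Of shared peaks 65.7% in eRBC and 59.7% in HD3 were wider than their list's median, and 71.8% and 49.9% ranked above its middle. Unshared peaks had a neighbour within 10 kb in 56.2% in eRBC and 20.9% in HD3, and were overlapped in 60.1% and 5.72% by aRBC and in 32.0% and 26.6% by fibroblasts. In lists of equal length (6883 peaks each, those of highest −log10 p), 49.5% of eRBC and 50.1% of HD3 peaks were shared. The aRBC and fibroblast lists were not cut here or at the −log10 q minimum. By chromosome group, as above, the eRBC shares were 55.003%, 44.7% and 28.7% and the HD3 shares 44.4%, 61.0% and 63.6%. Of shared peaks 60.5% in eRBC and 61.8% in HD3 were wider than the median, 66.9% and 51.2% ranked above the middle, and 85.3% of one-to-one sites were wider in eRBC. Unshared peaks had a neighbour in 45.3% in eRBC and 21.8% in HD3, and were overlapped in 69.6% and 10.6% by aRBC and in 37.4% and 29.5% by fibroblasts.

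With 200 bp around the summits, 52.8% of eRBC and 56.4% of HD3 peaks were shared, HD3 peaks in 50.2% on chromosomes 1 to 5 and 68.0% on 11 to 33. Unshared peaks were overlapped by aRBC in 38.7% in eRBC and 5.63% in HD3, and 34.1% of unshared HD3 peaks had a neighbour. Counted by covered bases, eRBC shares were 69.5%, 59.3% and 45.0% on chromosomes 1 to 5, 11 to 33 and Z, and HD3 shares 58.0% and 74.2% on the first 2. Linking gaps of 5 kb and 25 kb gave neighbours to 59.5% and 87.3% of unshared eRBC peaks and to 19.6% and 54.8% of unshared HD3 peaks. Requiring 50% of the shorter peak put 39.7% of unshared eRBC peaks in aRBC. Without dense windows 54.6% of eRBC peaks were shared, and unshared eRBC peaks had a neighbour in 70.2% and were overlapped in 39.5% by aRBC and 18.7% by fibroblasts.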
